A study of Mus musculus with 3 samples.

Results

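The members of the Notch pathway described here are 10 genes, followed in PDL-L2 cells, a mouse line derived from the fibroblasts of the periodontal ligament, which joins the tooth root to the jaw bone. They are the receptors Notch1, Notch2 and Notch3, the ligands Jag1 and Dll1, the DNA-binding factor Rbpj, and the effectors Hes1, Hey1, Hey2 and Heyl. A probe set was taken where the platform annotation gave a member as its only gene symbol, which found 19 probe sets for the 10 members, among 18193 genes and 45101 probe sets in all. The data hold 1 Affymetrix array for each of 3 conditions. The first is PDL-L2 cells given an siRNA pool against endoglin (siENG) and then 250 ng/ml of recombinant human BMP-2. The second is cells given the control siRNA pool (siCont) and the same dose of BMP-2, and the third is siCont cells given vehicle. BMP-2 or vehicle was applied 48 h after transfection, in differentiation medium with ascorbic acid and β-glycerophosphate, and RNA was taken 12 h later. All 3 arrays come from a single immortalised line, and siENG cells without BMP-2 were not analysed here, so an effect of siENG in resting cells cannot be told apart from an effect on the response to BMP-2.

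Notch receptors are cut when a ligand such as Jag1 on a neighbouring cell pulls on them, and the freed inner part enters the nucleus and joins Rbpj. That complex switches on the genes of the Hes and Hey repressors, basic helix-loop-helix proteins that hold back differentiation genes. Hey1 and Hes1 are also known to respond to BMP in endothelial and bone-forming cells.

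With 1 array per condition no difference has a replicate check, and no test, p-value or standard error is given. A signal is the linear intensity of a probe set as deposited. A centred log2 ratio is the log2 ratio of 2 signals, less the median over the 22519 probe sets whose geometric mean signal over the 3 arrays was at or above the signal limit of 21.9, the median of all probe sets. That median was 0.01 for BMP-2 over vehicle in siCont cells, 0.21 for siENG over siCont with BMP-2 and 0.22 for siENG with BMP-2 over siCont with vehicle, so the siENG array was brighter as a whole. The spread beside a ratio is the robust SD of the centred log2 ratio over probe sets of similar brightness on the same arrays. It holds real changes as well as noise and says nothing of variation between cultures. Mouse RNA holds no target for the 27 Bacillus control probe sets, whose highest signal was 13.1, and signals at or below it carry no order. Endoglin (Eng), the targeted gene, had signals of 108.2 with siENG and BMP-2, 298.5 with siCont and BMP-2 and 286.3 with siCont and vehicle in its brighter probe set, so the array labelled siENG was the lowest. Of 13 periodontal ligament fibroblast markers measured, 10 were past the signal limit, among them Col1a2 with signals of 10255 with siENG and BMP-2, 9773 with siCont and BMP-2 and 9569 with siCont and vehicle. The ligament markers Aspn and Tnmd lay within the range of the Bacillus controls on all arrays. Of 8 endothelial markers, a cell type in which Notch, Hey genes and endoglin are all prominent, 0 were past the signal limit, and their summed signal was 65.1 with siENG and BMP-2, 62.0 with siCont and BMP-2 and 49.9 with siCont and vehicle. On all arrays, 6 of the 8 lay within the range of the Bacillus controls. Kdr, an endothelial receptor for VEGF, was below the signal limit but had the same order of arrays as Hey1, with centred log2 ratios of 2.61 for BMP-2 over vehicle, where its vehicle signal of 4.2 lay within that range, and -0.57 for siENG over siCont with BMP-2. The summed signal of 4 mural cell markers was 106.5, 47.8 and 93.7 in the same conditions, of which Des made 74.2, 13.9 and 53.5. That of 5 leukocyte markers was 175.9, 94.3 and 120.6, mostly from Cd68 and Csf1r, and that of 4 epithelial markers was 49.6, 65.5 and 80.5. The part of these markers in the results was not tested. In such whole cultures, fewer cells of a type and less RNA per cell cannot be told apart.

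Hey1 stood far above the other members in the comparison of BMP-2 with vehicle, and Hes1 followed at a smaller ratio. The member receptors and Rbpj did not share this: in their brightest probe sets, Notch1, Notch2, Notch3 and Rbpj had centred log2 ratios between -0.57 and -0.02. The ligands Jag1 and Dll1 had small positive ratios of 0.47 and 0.49. With endoglin knockdown, Hes1 was close to its level with siCont and BMP-2, Hey1 was somewhat lower, and Jag1 was lower in all of its probe sets.

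**Figure D1:**
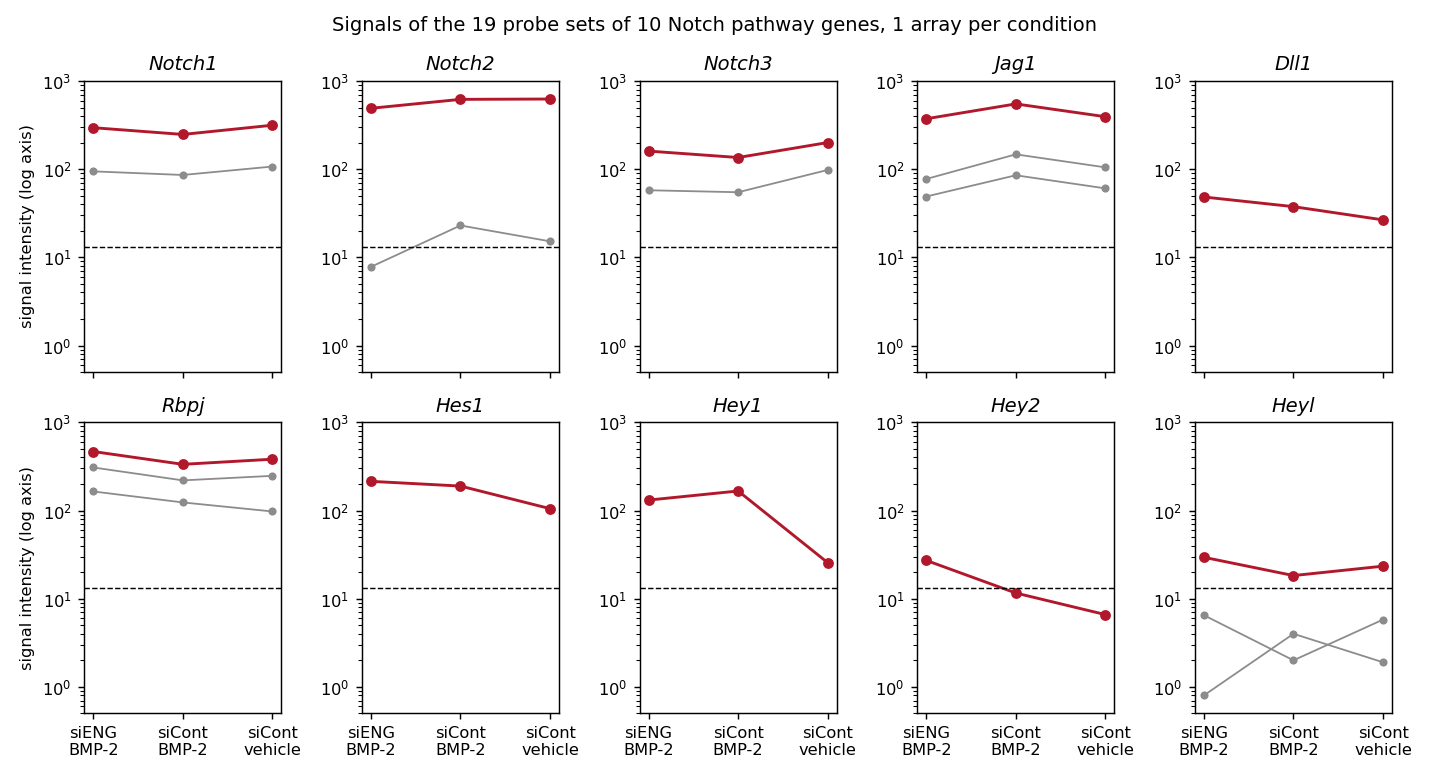
Signal intensity (log axis) of every probe set of the 10 members on the siENG BMP-2, siCont BMP-2 and siCont vehicle arrays, with 1 array per condition and no error bars. The brightest probe set of a gene is red, the others are grey, and the dashed line marks 13.1, the highest Bacillus control signal. Hey1 has 131.4 and 166.6 on the BMP-2 arrays against 25.6 with vehicle, Jag1 peaks on the siCont BMP-2 array in all of its probe sets, and Hey2 leaves the range of the controls on the siENG array.

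Hey1, a repressor named for its hairy-related sequence and YRPW motif, had signals of 131.4 with siENG and BMP-2, 166.6 with siCont and BMP-2 and 25.6 with siCont and vehicle. Both BMP-2 arrays were high and the vehicle array was low, near the signal limit but above the Bacillus controls. The centred log2 ratio of BMP-2 over vehicle with siCont was 2.69, a ratio of 6.47, where probe sets of similar mean brightness had a robust SD of 0.29. Probe sets with mean signals of 21.9 to 26.0, near the vehicle signal of Hey1, had a wider robust SD of 0.57. For siENG with BMP-2 over siCont with vehicle the centred log2 ratio of Hey1 was 2.14, a ratio of 4.41, with a robust SD of 0.43. Between the BMP-2 arrays, siENG over siCont gave -0.55 with a robust SD of 0.38, and -0.34 as deposited. Hey1 was thus well above its vehicle level on the array with endoglin knockdown too. A single probe set read Hey1, so no second reading of the gene bears on these values. The study that reported these arrays does not name Hey1 among its genes more than 2-fold higher with BMP-2, and the reason was not tested.

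Hes1, a repressor that keeps progenitor cells undifferentiated, had signals of 214.4 with siENG and BMP-2, 189.5 with siCont and BMP-2 and 105.0 with siCont and vehicle. Both BMP-2 arrays were again the high ones. The centred log2 ratio of BMP-2 over vehicle with siCont was 0.84, a ratio of 1.79, against a robust SD of 0.22, so Hes1 did not reach a ratio of 2 here. The study that reported these arrays lists Hes1 among genes more than 2-fold higher with BMP-2 by its own fold change. Why the values differ was not tested. For siENG with BMP-2 over siCont with vehicle the centred log2 ratio was 0.81, with a robust SD of 0.36, a ratio of 1.75. As deposited that ratio was 1.03 on the log2 scale and did reach 2, since the siENG array was brighter. For siENG over siCont, both with BMP-2, the centred log2 ratio was -0.03 and the value as deposited was 0.18, so the sign depends on the scaling and the size lies within the robust SD of 0.34. Hes1 was also read by a single probe set.

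Hey2, which pairs with Hes1 and is best known from the heart and arteries, had signals of 27.2 with siENG and BMP-2, 11.6 with siCont and BMP-2 and 6.6 with siCont and vehicle. Only the siENG array was above the Bacillus controls, and the geometric mean of Hey2 was below the signal limit, so it was left out of every count past the limit. The siENG reading of Hey2 was set against the highest control signal, after centring. It gave lower bounds of 1.80-fold over siCont with BMP-2 and 1.78-fold over siCont with vehicle. These bounds take the single reading of 27.2 as exact. Probe sets with mean signals of 26.0 to 31.0 had a robust SD of 0.57 for siENG over siCont with BMP-2. The epithelial marker Epcam, also below the signal limit, read 26.9 with siCont and BMP-2. The bounds thus do not establish a difference in Hey2. Between siCont BMP-2 and siCont vehicle no fold is given, since both signals lay within the range of the controls.

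Of the Hes and Hey genes, Hey2 was the only member matched in the RefSeq promoter table, which held 7 of the 10 members. Hes1, Hey1 and Heyl were not matched. The promoter of Hey2 is shown because it holds the letters read by Rbpj in both directions, TGGGAA, in capitals on either strand. It lies on the minus strand of GRCm38.p6 at chr10:30842734-30843033 and is written 5′ to 3′ in the direction of transcription, from 250 bases before the start to 50 after it.
Hey2: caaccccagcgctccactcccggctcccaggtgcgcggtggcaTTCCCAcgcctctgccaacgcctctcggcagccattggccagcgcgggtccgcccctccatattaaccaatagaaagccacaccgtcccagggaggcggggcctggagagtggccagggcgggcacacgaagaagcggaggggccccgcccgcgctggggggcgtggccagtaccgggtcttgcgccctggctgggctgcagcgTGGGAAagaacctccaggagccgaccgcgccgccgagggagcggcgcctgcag
The 2 matches began at bases 44 and 248 of the 300 printed, the second of them across the start site. GGCGCC, letters read by Smad1 and Smad5, matched 1 time, at base 290. Searched on both strands of 32544 promoters of this length, TGGGAA was in 25.4% and GGCGCC in 11.9%. The N-box CACNAG and the E-box CACGTG, which Hes and Hey proteins read, and the Smad palindrome GTCTAGAC did not match in Hey2, and they were in 42.6%, 7.17% and 0.215% of all promoters. Of the 9 promoters of members, 3 held TGGGAA, the others being the 2 of Rbpj, of which 1 also held it on both strands. The 2 windows of Rbpj overlap and share 1 site, so Hey2 and Rbpj were the only genes with a match among the 7 members in the table. A match is a description of letters and not of binding.

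Heyl, the third Hey gene, was near the lower end of measurement. Its brightest probe set had signals of 29.5 with siENG and BMP-2, 18.3 with siCont and BMP-2 and 23.4 with siCont and vehicle, with centred log2 ratios of 0.48 for siENG over siCont with BMP-2 and -0.36 for BMP-2 over vehicle with siCont. Both lay within the robust SDs of 0.58 and 0.57. The other 2 probe sets of Heyl had signals between 0.8 and 6.5, all within the range of the Bacillus controls. With BMP-2, Hey1 and Hes1 were higher, Heyl differed by less than its spread and Hey2 could not be read.

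**Figure D2:**
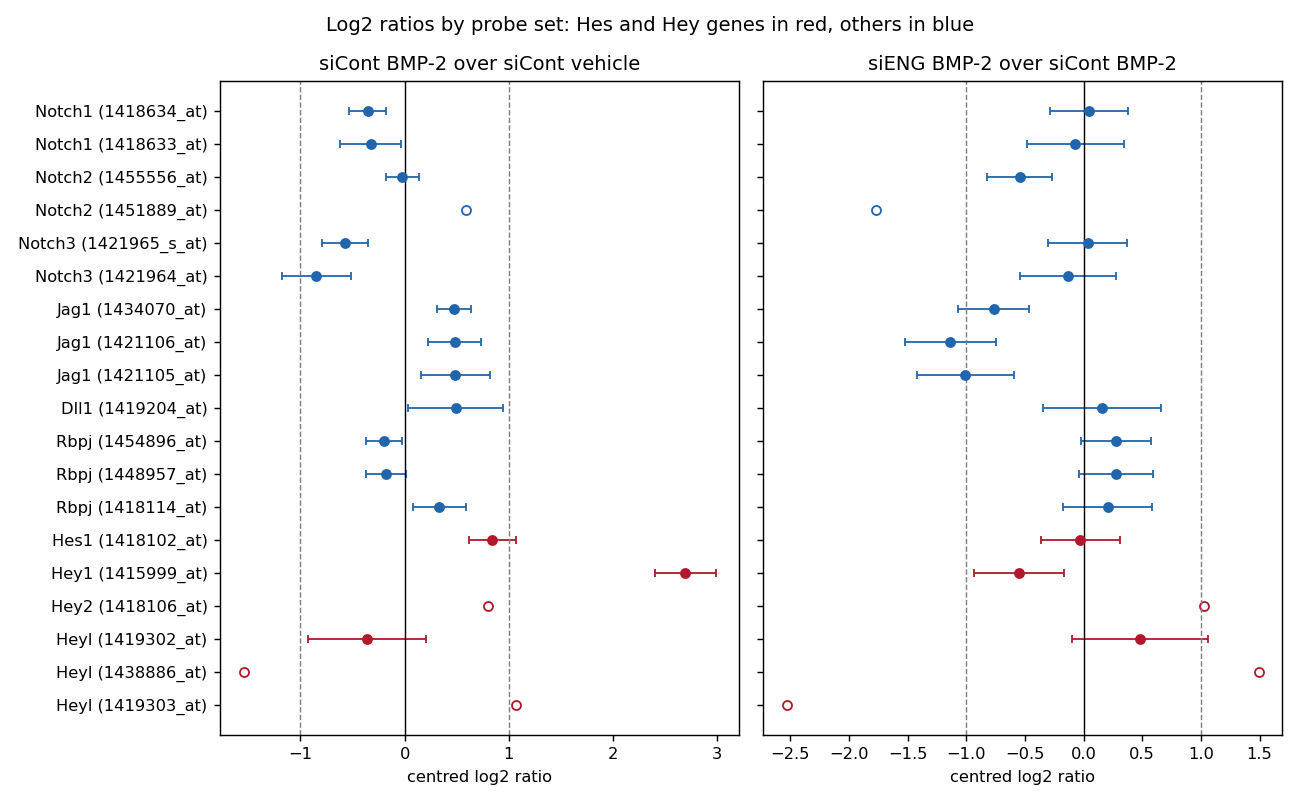
Centred log2 ratio of each of the 19 probe sets for BMP-2 over vehicle with siCont (left) and siENG over siCont with BMP-2 (right), Hes and Hey genes in red and the other members in blue. Bars show 1 robust SD of probe sets of similar brightness, open points lie below the signal limit and have no bar, and dashed lines mark ratios of 2 and 0.5. On the left Hey1 lies at 2.69 and Hes1 at 0.84, and on the right the 3 probe sets of Jag1 lie between -1.14 and -0.77.

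Notch1, a widely expressed receptor of the family, had signals of 295.6 with siENG and BMP-2, 247.9 with siCont and BMP-2 and 315.3 with siCont and vehicle. The siCont BMP-2 array was the lowest, and the second probe set had the same order, with 94.5, 86.0 and 107.2 in the same conditions. The centred log2 ratios of BMP-2 over vehicle with siCont were -0.36 and -0.33, with robust SDs of 0.18 and 0.29. With BMP-2, siENG over siCont gave 0.05 and -0.07, small beside robust SDs of 0.33 and 0.42.

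Notch3, a receptor best known from the mural cells of vessels, had the lowest ratio of the receptors with BMP-2. Its brighter probe set had signals of 160.5 with siENG and BMP-2, 135.7 with siCont and BMP-2 and 200.6 with siCont and vehicle, and the dimmer 57.7, 54.8 and 98.1. The vehicle array was the highest in both. The centred log2 ratios of BMP-2 over vehicle with siCont were -0.57 and -0.85, with robust SDs of 0.22 and 0.33. For siENG with BMP-2 over siCont with vehicle they were -0.54 and -0.99, and for siENG over siCont with BMP-2 0.04 and -0.13. Notch3 was thus lower on both BMP-2 arrays while Hey1 and Hes1 were higher.

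Notch2, a receptor important in bone, was nearly level with BMP-2 and lower with knockdown. Its brighter probe set had signals of 490.6 with siENG and BMP-2, 619.7 with siCont and BMP-2 and 625.1 with siCont and vehicle. The centred log2 ratio was -0.02 for BMP-2 over vehicle with siCont and -0.54 for siENG over siCont with BMP-2, with robust SDs of 0.16 and 0.28. As deposited the second value was -0.34. The other probe set of Notch2 was below the signal limit, with signals of 7.8 with siENG and BMP-2, 23.0 with siCont and BMP-2 and 15.2 with siCont and vehicle.

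Jag1, a ligand known from vessels and bone, was the member that was lowest with siENG relative to siCont. Its 3 probe sets had signals of 373.1, 77.4 and 49.0 with siENG and BMP-2, of 550.1, 147.4 and 85.3 with siCont and BMP-2, and of 393.8, 104.9 and 60.6 with siCont and vehicle. The siCont BMP-2 array was the highest in all 3. The centred log2 ratios of BMP-2 over vehicle with siCont were 0.47, 0.48 and 0.48, with robust SDs of 0.16, 0.26 and 0.33. With BMP-2, siENG over siCont gave -0.77, -1.14 and -1.01, with robust SDs of 0.30, 0.39 and 0.41. As deposited those values were -0.56, -0.93 and -0.80, so no probe set reached a ratio of 0.5 without centring. Relative to siCont vehicle, the siENG BMP-2 array gave -0.30, -0.66 and -0.53. The siCont BMP-2 array stands in both comparisons, so its reading of Jag1 enters them with opposite signs. The probe sets of a gene read the same RNA and are not replicates.

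The promoter of Jag1 is shown beside that of Hey2 as the ligand gene with the clearest difference between the arrays. It lies on the minus strand of GRCm38.p6 at chr2:137116471-137116770, and is written 5′ to 3′ over the same 300 bases.
Jag1: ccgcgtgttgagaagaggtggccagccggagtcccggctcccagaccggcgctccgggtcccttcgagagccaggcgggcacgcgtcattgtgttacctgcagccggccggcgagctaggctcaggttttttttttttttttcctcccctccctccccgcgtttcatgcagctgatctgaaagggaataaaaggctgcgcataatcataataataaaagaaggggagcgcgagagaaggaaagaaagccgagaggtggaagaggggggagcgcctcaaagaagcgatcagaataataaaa
None of the 5 motifs searched was in this window. Its GC content was 55.7%, against 72.0% in the window of Hey2.

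Dll1, the other ligand measured, was dim, with signals of 48.4 with siENG and BMP-2, 37.6 with siCont and BMP-2 and 26.6 with siCont and vehicle. The vehicle array was the lowest. The centred log2 ratio was 0.49 for BMP-2 over vehicle with siCont and 0.64 for siENG with BMP-2 over siCont with vehicle, not far past the robust SDs of 0.46 and 0.52. With BMP-2, siENG over siCont gave 0.16, so Dll1 had no counterpart to the low Jag1 signals with knockdown.

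Rbpj, through which all the receptors act on DNA, had 3 probe sets. Signals of the brightest were 467.2 with siENG and BMP-2, 334.3 with siCont and BMP-2 and 382.2 with siCont and vehicle. Its centred log2 ratios were -0.20 for BMP-2 over vehicle with siCont and 0.28 for siENG over siCont with BMP-2, with robust SDs of 0.17 and 0.30. The second probe set gave -0.18 and 0.28, and the dimmest 0.33 and 0.21. The probe sets of Rbpj thus disagreed in sign for BMP-2, and none had a ratio near 2.

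Of the 9 members past the signal limit, 1 had a ratio of 2 or more for BMP-2 over vehicle with siCont, Hey1, where 1.01% of all 10419 genes past the limit did. No member had a ratio of 0.5 or less, where 0.662% of all genes did. For siENG over siCont with BMP-2, 0 of 9 members had a ratio of 2 or more and 0 had one of 0.5 or less in their brightest probe sets, where 1.6% and 1.47% of all genes did. For siENG with BMP-2 over siCont with vehicle, Hey1 alone had a ratio of 2 or more and 0 members had one of 0.5 or less, where 1.51% and 1.68% of all genes did. The median centred log2 ratio of the 9 members was -0.02 with BMP-2. That over all genes was 0.0003. The 3 Hes and Hey genes past the limit ranged from -0.36 for Heyl to 2.69 for Hey1, and their median of 0.84 is the value of Hes1. The 6 other members ranged from -0.57 for Notch3 to 0.49 for Dll1, with a median of -0.11. Under a stricter signal limit of 151.3, the 75th percentile, Hey1 itself was left out, with a geometric mean signal of 82.4. In their brightest probe sets, Hey1 and Hes1 were thus higher with BMP-2 while Notch1, Notch2, Notch3 and Rbpj were not.

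**Figure D3:**
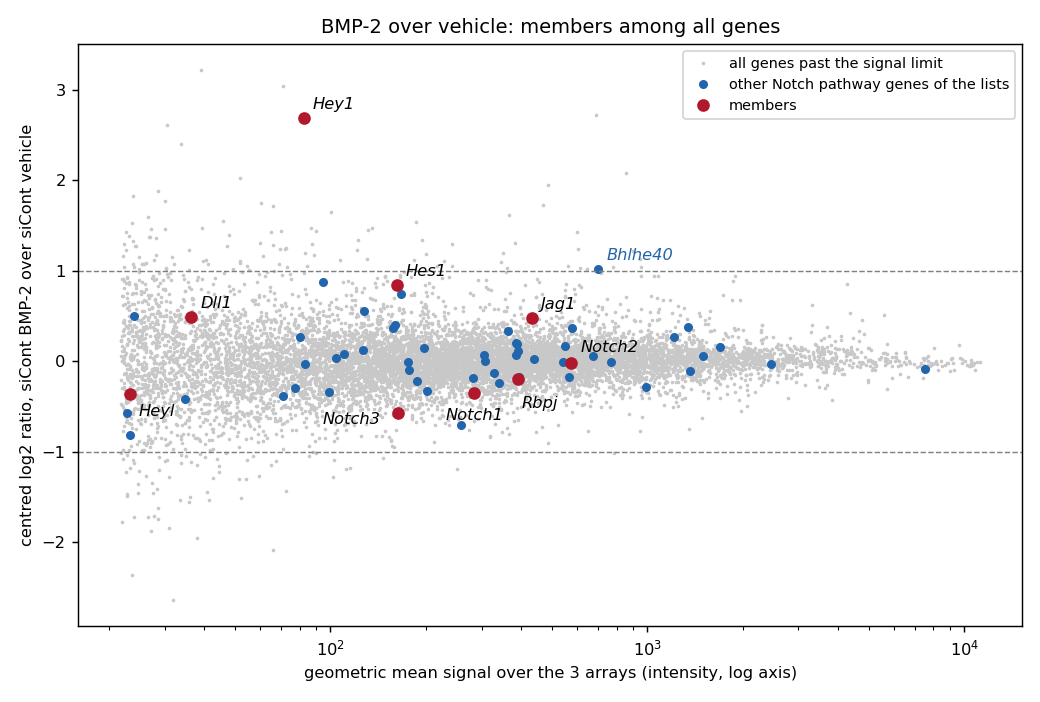
Centred log2 ratio of BMP-2 over vehicle with siCont against the geometric mean signal over the 3 arrays (log axis), with 1 point per gene past the signal limit. Members are red, the other Notch pathway genes blue and all other genes grey, and dashed lines mark ratios of 2 and 0.5. Hey1 lies at 2.69, above nearly all genes of similar brightness, Hes1 at 0.84, and most blue points lie close to 0.

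The rest of the pathway was read from lists of 68 further genes, of which 62 were measured and 50 were past the signal limit. For BMP-2 over vehicle with siCont, 1 of the 50 had a ratio of 2 or more and 0 had one of 0.5 or less, where 1.01% and 0.662% of all genes did. Their median centred log2 ratio was 0.03. For siENG over siCont with BMP-2, 0 had a ratio of 2 or more and 1 had one of 0.5 or less, where 1.6% and 1.47% of all genes did. The median was 0.01. Of these, 42 were ligands, receptors, processing enzymes, regulators and cofactors. In their brightest probe sets, the ratio of BMP-2 over vehicle was 2 or more in 0 and 0.5 or less in 0. These counts are close to the shares over all genes and do not set the lists apart. They use the brightest probe set of each gene, and a dimmer probe set of Dtx4 past the limit had a ratio of 0.348 for BMP-2 over vehicle. Hes1, at a ratio of 1.79, did not pass this cut either, and Notch4 of the lists was at 1.83.

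Bhlhe40, a helix-loop-helix repressor related to the Hes family and controlled by the clock and by low oxygen, was the gene past a ratio of 2. Its signals were 1533 with siENG and BMP-2, 671.0 with siCont and BMP-2 and 329.0 with siCont and vehicle. The centred log2 ratio was 1.02 for BMP-2 over vehicle with siCont and 0.98 for siENG over siCont with BMP-2, so unlike Hey1 it was highest on the siENG array. Hes6, a family member that opposes Hes1, had centred log2 ratios of -0.22 and 0.01 in the same comparisons. Hes2, Hes3, Hes5 and Hes7 had signals at or below 8.9 on all arrays in their brightest probe sets and were not read.

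Among the ligands and receptors outside the members, Notch4, a receptor best known from endothelium, had signals of 93.7 with siENG and BMP-2, 130.1 with siCont and BMP-2 and 70.5 with siCont and vehicle. It was highest on the siCont BMP-2 array, with a centred log2 ratio of 0.88 for BMP-2 over vehicle and -0.68 for siENG over siCont with BMP-2. Its other probe sets were below the signal limit. Jag2 had signals of 27.6 with siENG and BMP-2, 33.8 with siCont and BMP-2 and 44.9 with siCont and vehicle. Its centred log2 ratio was -0.42 for BMP-2 over vehicle, within the robust SD of 0.46, and -0.92 for siENG with BMP-2 over siCont with vehicle, with a robust SD of 0.52. Dll4, dim at 28.3, 16.9 and 25.0 in the same conditions, had -0.57 for BMP-2 over vehicle, about as large as the robust SD at its brightness.

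Lfng, the Fringe enzyme that adds sugar to Notch and changes which ligand it answers, had signals of 154.5 with siENG and BMP-2, 227.1 with siCont and BMP-2 and 134.5 with siCont and vehicle. Its 2 probe sets had centred log2 ratios of 0.75 and 0.76 with BMP-2, and of -0.76 and -0.38 for siENG over siCont. Like Jag1, Lfng was highest on the siCont BMP-2 array. The reading of that array enters both comparisons with opposite signs, as it does for Notch4 and Adam17. Adam17, a protease that can cut Notch at the cell surface, had 0.36, 0.54 and 0.56 in its 3 probe sets with BMP-2 and -0.35, -0.53 and -0.57 for siENG over siCont. Furin, which matures the receptor in the Golgi, was level with BMP-2 at -0.10 and lower with knockdown at -0.80, with signals of 131.9 with siENG and BMP-2, 198.7 with siCont and BMP-2 and 212.1 with siCont and vehicle. The γ-secretase subunits measured, which make the final cut, had centred log2 ratios between -0.33 for Psen2 and 0.27 for Psenen with BMP-2 in their brightest probe sets, and a dimmer probe set of Aph1a had -0.37. Pofut1, which adds fucose to Notch, had 0.40 with BMP-2 in its brightest probe set but 0.09 and -0.71 in the others, and Poglut1 had 0.02.

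**Figure D4:**
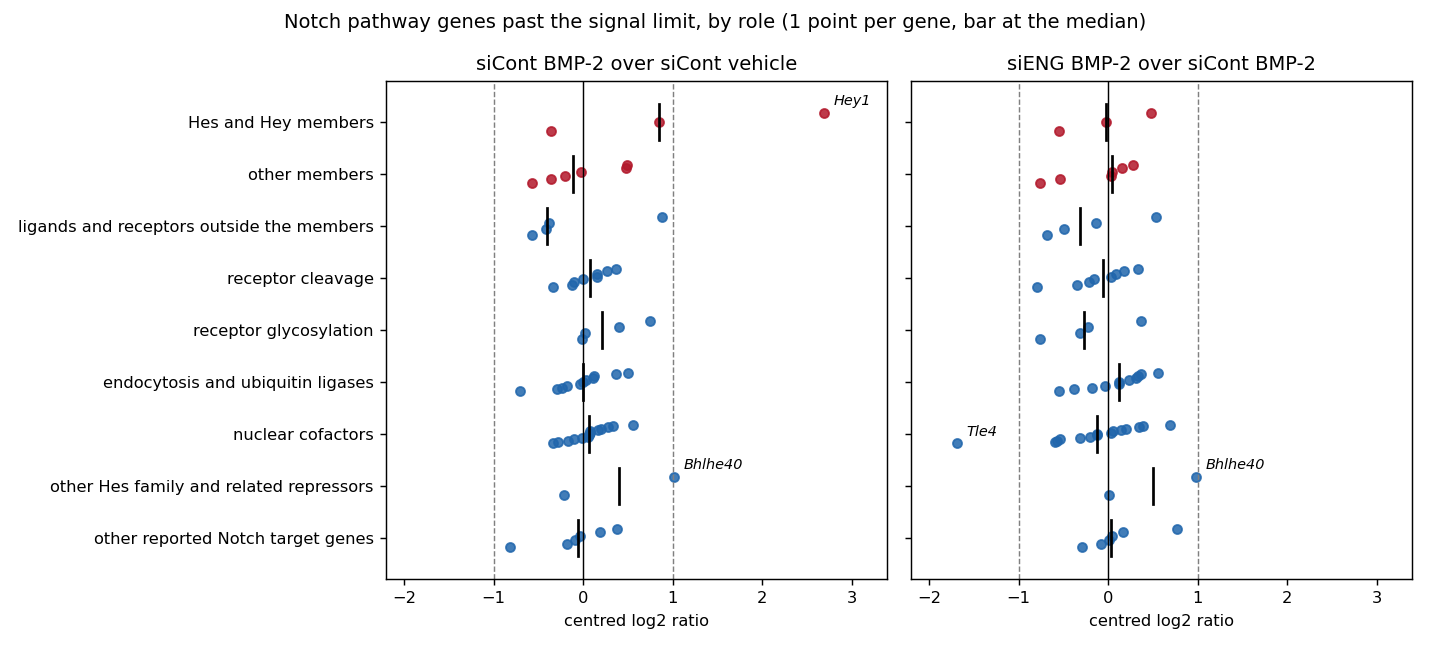
Centred log2 ratio of each Notch pathway gene past the signal limit, by role, for BMP-2 over vehicle with siCont (left) and siENG over siCont with BMP-2 (right). Members are red and the other genes blue, black bars mark medians, dashed lines mark ratios of 2 and 0.5, and genes at 0.9 or more in either direction are named. Hey1 and Bhlhe40 lie beyond a ratio of 2 on the left, and Tle4 at -1.69 on the right.

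Tle4, a Groucho corepressor that Hes and Hey proteins recruit, was the gene with a ratio of 0.5 or less with knockdown. The brightest of its probe sets gave signals of 56.7 with siENG and BMP-2, 158.3 with siCont and BMP-2 and 148.8 with siCont and vehicle, and -1.69 as the centred log2 ratio of siENG over siCont. The other probe set past the limit gave signals of 20.5, 18.1 and 33.0 in the same conditions and a ratio of -0.03, so the low value rests on a single probe set. Kat2b, an acetyltransferase in the Notch complex, had -0.54 for siENG over siCont with BMP-2, with -0.46 and -0.64 in its other probe sets, while its relative Kat2a had 0.69, with 0.71 and 1.01. Spen, a corepressor that binds Rbpj, had -0.34 with BMP-2 and -0.32 for siENG over siCont.

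Dtx4, a Deltex ubiquitin ligase that regulates Notch, was the lowest of the regulators with BMP-2. Its probe sets had signals of 279.2 and 106.6 with siENG and BMP-2, 195.5 and 41.9 with siCont and BMP-2, and 316.2 and 119.8 with siCont and vehicle. The siCont BMP-2 array was low in both, with centred log2 ratios over vehicle of -0.70 and -1.52, and the siENG array was nearer to vehicle, at -0.40 and -0.39. The study that reported these arrays lists Dtx4 among its genes suppressed by BMP-2. Itch, a ligase that marks Notch for degradation, had 0.56 for siENG over siCont with BMP-2 in its brightest probe set and 0.15 and 1.16 in the others past the limit. Dtx1, another Deltex gene, had signals of 23.1 with siENG and BMP-2, 29.2 with siCont and BMP-2 and 20.5 with siCont and vehicle.

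Among 6 other genes reported to answer Notch and past the limit, 2 had centred log2 ratios above 0 with BMP-2, Snai2 and Myc. Cdkn1a and Acta2 lay just below 0, at -0.04 and -0.09 in their brightest probe sets. The median of the 6 was -0.06, beside 0.0003 over all genes, so this count does not set the 6 apart. Nrarp, a feedback inhibitor induced by Notch in many tissues, had signals of 20.6 with siENG and BMP-2, 18.9 with siCont and BMP-2 and 33.1 with siCont and vehicle. It was lower on both BMP-2 arrays, with a centred log2 ratio of -0.82 for BMP-2 over vehicle with siCont against a robust SD of 0.57. Ccnd1, a cyclin of the G1 phase, had -0.18 with BMP-2 and 0.77 for siENG over siCont in its brightest probe set, and 0.65 and 1.02 for siENG over siCont in the others. Snai2, a repressor of epithelial genes, had 0.37 with BMP-2 and -0.29 for siENG over siCont in its brightest probe set, the same signs as Hey1, with robust SDs of 0.14 and 0.25. Its other probe set had 0.0028 with BMP-2. Myc, a growth factor-induced transcription factor, had 0.19 with BMP-2 against a robust SD of 0.17. In their brightest probe sets, 0 of the 6 had a ratio of 2 or more in any of the comparisons, where 1.01% to 1.6% of all genes did.

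Smad6, Smad7 and Id1 to Id4, taken as a BMP feedback list, give a scale for the BMP-2 difference on these arrays. The study that reported these arrays describes endoglin-mediated BMP signalling in periodontal ligament cells as independent of phosphorylation of the Smads usually tied to BMP. The route by which BMP-2 reaches these genes was not tested. In their brightest probe sets, Smad6 and Smad7, the inhibitory Smads, had centred log2 ratios of 2.08 and 1.95 for BMP-2 over vehicle with siCont. Those of Id1, Id2, Id3 and Id4 were 0.94, 0.68, 0.54 and 1.47. The dimmer probe set of Smad7 had 1.30, and the dimmer probe sets of Id4 had 1.47 and 0.91. For siENG over siCont with BMP-2 all 6 were below 0 after centring in their brightest probe sets, between -1.09 for Id4 and -0.20 for Smad6. As deposited Smad6 was at 0.0065. The dimmer probe sets of Id4 had -1.25 and -0.49, and that of Smad7 had -0.09, or 0.12 as deposited. The siCont BMP-2 array enters both comparisons with opposite signs, so their ratios are not independent. Hey1, at 2.69 and -0.55, was higher than any of the 6 in the first comparison and within their range in the second. In its brightest probe set, Id4 had signals of 126.8 with siENG and BMP-2, 233.2 with siCont and BMP-2 and 83.6 with siCont and vehicle.

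The genes nearest to Hey1 and Hes1 in pattern were sought among 6707 genes with a geometric mean signal of 151.3 or more, by the Euclidean distance over the centred log2 ratios of BMP-2 over vehicle and of siENG over siCont with BMP-2, which rest on 3 arrays. Nearest to Hey1 were Fabp7, a fatty acid binding protein, at a distance of 0.19, Smad6 at 0.71 and Smad7 at 0.75. Fabp7 had signals of 1018 with siENG and BMP-2, 1468 with siCont and BMP-2 and 221.2 with siCont and vehicle. Nearest to Hes1 were Pxdc1 at 0.04, S100a8 at 0.09 and Rgs3 at 0.12. Pxdc1 had signals of 280.4 with siENG and BMP-2, 243.5 with siCont and BMP-2 and 137.4 with siCont and vehicle. The siCont BMP-2 array enters both ratios with opposite signs, and the distances are a description only.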

How the data were processed

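Total RNA of PDL-L2 cells was hybridised to Affymetrix Mouse Genome 430 2.0 arrays, 1 per condition. The deposited values are a linear signal intensity per probe set, made by the authors with GCOS 1.4, a name taken from the submitters' processing notes. The algorithm and scaling target were not given in the sources used here. Signals listed at 0 were set to 0.1, and 64 control probe sets were left out. Symbols came from the platform annotation, updated by Entrez identifier from RefSeq names for GRCm38.p6 (34754 of 34958 probe sets with 1 symbol matched). A gene was read from its probe set of highest mean log2 signal. The robust SD is 1.4826 times the median absolute deviation in 20 bins of mean log2 signal. The number of arrays limits the precision. The calculation of the ratios was run on simulated arrays with known differences, which checks the arithmetic and not the measured ratios.

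The members, gene lists and rules were chosen with earlier results of these data known. Genes named were all members, list genes past a ratio of 2 or 0.5 and the next 3 of each list by size, Id1 to Id4, Smad6, Smad7, Eng and the nearest patterns. Some cell type markers were named as well. List genes without a matched probe set and protein sequences were not analysed here. Alternatives covered the scaling of arrays (as deposited, quantile, lowess with a fraction of 0.3, 2% trimmed mean), the probe sets of a gene, a floor and the signal limit. Calculations used Python 3.11.15, numpy 2.4.6, pandas 2.3.3, statsmodels 0.14.6 and matplotlib 3.10.9.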

Additional observations from a re-analysis of the deposited data

How the results depend on the processing

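The scaling, probe set and floor settings kept Hey1 above 0 for BMP-2 over vehicle, with a centred log2 ratio between 2.68 and 2.74, and Hes1 between 0.83 and 0.85. Jag1 stayed between -0.97 and -0.56 for siENG over siCont with BMP-2. For the same comparison Notch1, Notch3, Hes1 and Heyl changed sign between settings. For BMP-2 over vehicle, Notch2 lay between -0.06 and 0.28 and Hey2 between -0.01 and 0.86, so both changed sign. Notch2 was above 0 only with the mean over probe sets. For siENG with BMP-2 over siCont with vehicle, Heyl changed sign. The median over all 10 members for BMP-2 over vehicle was 0.23, which includes a ratio of Hey2 between signals within the Bacillus range. It was -0.0125 with signals below the median raised to it, and -0.02 over the 9 members past the limit. With the limit at the 75th percentile 0 members had a ratio of 2 or more for BMP-2 over vehicle or for siENG with BMP-2 over siCont with vehicle, since Hey1 was left out, and 0 list genes had one of 0.5 or less in either siENG comparison, since Tle4 was. As deposited, members at a ratio of 2 or more for siENG with BMP-2 over siCont with vehicle were 2, and 1 list gene, Bhlhe40, had one for siENG over siCont with BMP-2. With no limit, or a limit on the higher of the 2 signals, Hey2 was added, giving 1 member at a ratio of 2 or more for siENG over siCont with BMP-2 and 2 for siENG with BMP-2 over siCont with vehicle. Hey2 passes there only through the siENG array, its other signals lie within the Bacillus range, and its bounds of 1.80 and 1.78 do not establish a ratio of 2. With no limit, list genes at 0.5 or less were 4, 3 and 4 in the 3 comparisons, and 2 were at 2 or more for siENG over siCont with BMP-2. With the mean over probe sets, list genes at 0.5 or less were 2, 0 and 2, and 1 member, Notch2, was at 0.5 or less for siENG over siCont with BMP-2. With any probe set counted, 1 member, Jag1, was, while Ccnd1, Kat2a, Dtx4 and Itch of the lists were at 2 or more for siENG over siCont with BMP-2 and Dtx4 at 0.5 or less for BMP-2 over vehicle. With quantile normalization 0 list genes had a ratio of 2 or more for BMP-2 over vehicle. Of 180 values of single members under these alternatives, 171 moved by less than the robust SD and 9 by more. The cause of these shifts was not tested beyond the genes named. No paired analysis was possible because each condition has 1 array, and no replicate could be left out.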
